A study of Mus musculus with 4 samples.

Results

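Steroid hormone receptors and the genes that glucocorticoids induce were followed in cultured mouse prostate fibroblasts. The 9 genes, chosen by name, were the oestrogen receptor gene Esr1, the progesterone receptor gene Pgr, the glucocorticoid receptor gene Nr3c1, the mineralocorticoid receptor gene Nr3c2, the 5-alpha reductase genes Srd5a1 and Srd5a2, and the glucocorticoid targets Fkbp5, Tsc22d3 and Per1. They are 9 of the 56748 genes in the deposited count table, and all 9 reached a mean of at least 1 CPM (reads of a gene scaled to the size of the library). Earlier results of these data were known when the 9 genes and all lists below were chosen. The study has 4 bulk RNA-seq libraries, 1 per condition: vehicle (PBS, phosphate-buffered saline) or BuOE, each without or with radiation. All 4 came from male C57BL/6 mice aged 8 to 10 weeks, whose prostates were digested with collagenase and grown in serum-containing medium. Irradiated mice received 37.5 Gy to the pelvis, as 7.5 Gy fractions within 5 days at 1.2 Gy per minute, with the rest of the body behind lead. The labels do not give the interval between radiation and harvest, and the series title speaks only of giving the compound weeks after radiation. BuOE stands in the chemical name of the compound the series is titled after, a superoxide dismutase mimic built on a manganese porphyrin. Its dose, its timing and whether it reached animals or cultures are not given in the labels, and neither is the number of animals behind a library. Since no condition has a second library, every ratio below describes a pair of libraries only, with no replicate spread to hold it against.

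Steroid receptors are transcription factors that wait in the cytoplasm or nucleus with heat shock proteins, bind their hormone and then act on DNA. In the prostate, androgen signalling in stroma and epithelium is shaped by 5-alpha reductases, which turn testosterone into the stronger dihydrotestosterone, while oestrogen and progesterone receptors are known mainly from the stroma. The glucocorticoid receptor induces Per1 (a clock repressor), Tsc22d3 (the anti-inflammatory leucine zipper protein GILZ) and Fkbp5 (an immunophilin that lowers the receptor's hormone affinity and so closes a feedback loop) in many cell types.

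The DNA before the start sites of the 3 glucocorticoid targets is shown first, because Per1 and Tsc22d3 had one order of libraries and Fkbp5 another. RefSeq windows of 250 bases upstream of a start (build GRCm38.p6) were held for 8 of the 9 genes, the exception being Nr3c1. Bases inside annotated exons were left out, so some runs are shorter, and every window below lies within the body of its own gene as annotated from a longer transcript. Capitals mark a glucocorticoid receptor half-site (AGAACA), an oestrogen receptor half-site (AGGTCA), an E-box bound by clock factors (CACGTG) or the core of a cAMP response element (TGACG), each on either strand.
Per1 window 1, chr11:69098699-69098947, + strand: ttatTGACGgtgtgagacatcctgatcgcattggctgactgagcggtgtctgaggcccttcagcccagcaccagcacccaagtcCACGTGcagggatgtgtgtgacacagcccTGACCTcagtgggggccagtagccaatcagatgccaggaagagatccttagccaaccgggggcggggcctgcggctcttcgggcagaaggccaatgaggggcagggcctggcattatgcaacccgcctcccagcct
Per1 window 2, chr11:69099902-69100151, + strand: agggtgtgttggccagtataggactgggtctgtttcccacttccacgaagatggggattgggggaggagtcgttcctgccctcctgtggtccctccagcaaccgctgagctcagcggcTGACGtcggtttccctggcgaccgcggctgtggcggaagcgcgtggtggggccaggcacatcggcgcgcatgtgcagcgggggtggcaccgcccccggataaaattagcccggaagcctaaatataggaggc
Fkbp5, chr17:28486150-28486399, - strand: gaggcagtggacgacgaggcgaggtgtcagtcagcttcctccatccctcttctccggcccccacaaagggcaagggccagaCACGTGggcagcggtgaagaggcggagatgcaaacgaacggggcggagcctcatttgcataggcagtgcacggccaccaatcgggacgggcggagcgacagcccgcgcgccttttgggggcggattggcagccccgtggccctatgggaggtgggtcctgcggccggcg
Tsc22d3 window 2, chrX:140600660-140600772, - strand: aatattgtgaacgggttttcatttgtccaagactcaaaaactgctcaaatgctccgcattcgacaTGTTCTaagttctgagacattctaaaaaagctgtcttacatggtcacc
Tsc22d3 window 3, chrX:140548572-140548821, - strand: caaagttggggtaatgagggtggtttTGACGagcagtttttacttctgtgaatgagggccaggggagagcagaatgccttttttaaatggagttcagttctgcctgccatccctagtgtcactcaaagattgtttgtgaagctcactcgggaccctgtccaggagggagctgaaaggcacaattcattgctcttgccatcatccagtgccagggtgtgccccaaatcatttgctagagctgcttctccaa

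Window 1 of Per1, before its upstream start, held an E-box 166 bases before the start, a letter match to the oestrogen receptor half-site at 137 and a cAMP element core at 246. Window 2 of Per1 held a cAMP element core at 132. Fkbp5 had an E-box at 169, and Tsc22d3 had a glucocorticoid receptor half-site at 185 in window 2 and a cAMP element core at 224 in window 3. Of the 32851 mouse windows of this length, 6.02% held the E-box, 16.1% the glucocorticoid receptor half-site, 14% the oestrogen receptor half-site and 17.8% the cAMP element core. The full palindromes of the glucocorticoid receptor (0.00913% of windows) and of the oestrogen receptor (0.0639%) and the full cAMP element (TGACGTCA, 1.55%) were in none of these windows. These are matches of letters, not measured binding, and enhancers lie outside the windows.

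Library totals ran from 25.0 to 35.9 M counted reads. Values are CPM scaled with TMM factors, ratios are log2 ratios of these values, and brackets hold the 95% interval from counting error alone. All 10 fibroblast markers were measured in each library, with summed levels from 5316 to 9304 CPM, but so were all 8 luminal epithelial markers (3103 to 4139 CPM) and all 5 basal ones (467 to 1359 CPM). From here on, 4 values in a row give the PBS, BuOE, irradiated PBS and irradiated BuOE libraries in that order. Schwann cell markers (7 of 7 measured) summed to 48.3, 324, 175 and 130.1 CPM. Neuronal markers (10 of 10) summed to 122, 916, 262 and 94.0 CPM. All 7 lymphocyte markers had a mean below 1 CPM, and the adipocyte markers Adipoq and Lep were at 0 in at least 1 library. Mitochondrially encoded genes took 0.413%, 0.746%, 0.883% and 2.65% of the counts. In bulk RNA, fewer cells of a type and less RNA per cell cannot be told apart.

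Per kilobase of exon the 9 genes spanned a wide range of levels. Nr3c1 (11.4 CPM per kb) and Fkbp5 (11.2) were highest in the PBS library, followed by Per1 (5.35), Srd5a1 (4.88) and Tsc22d3 (3.01). Esr1 (1.34), Srd5a2 (1.19) and Nr3c2 (1.04) were lower, and Pgr (0.167) was lowest. In the irradiated BuOE library Per1 led at 20.7 CPM per kb, ahead of Nr3c1 at 16.4. Across the 4 libraries the scaled level of Pgr spanned 7.66-fold, that of Srd5a2 4.33-fold, of Per1 3.87-fold, of Srd5a1 2.91-fold and of Tsc22d3 2.15-fold. Esr1 (1.79-fold), Nr3c2 (1.5-fold), Fkbp5 (1.49-fold) and Nr3c1 (1.49-fold) stayed within 2-fold.

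**Figure D1:**
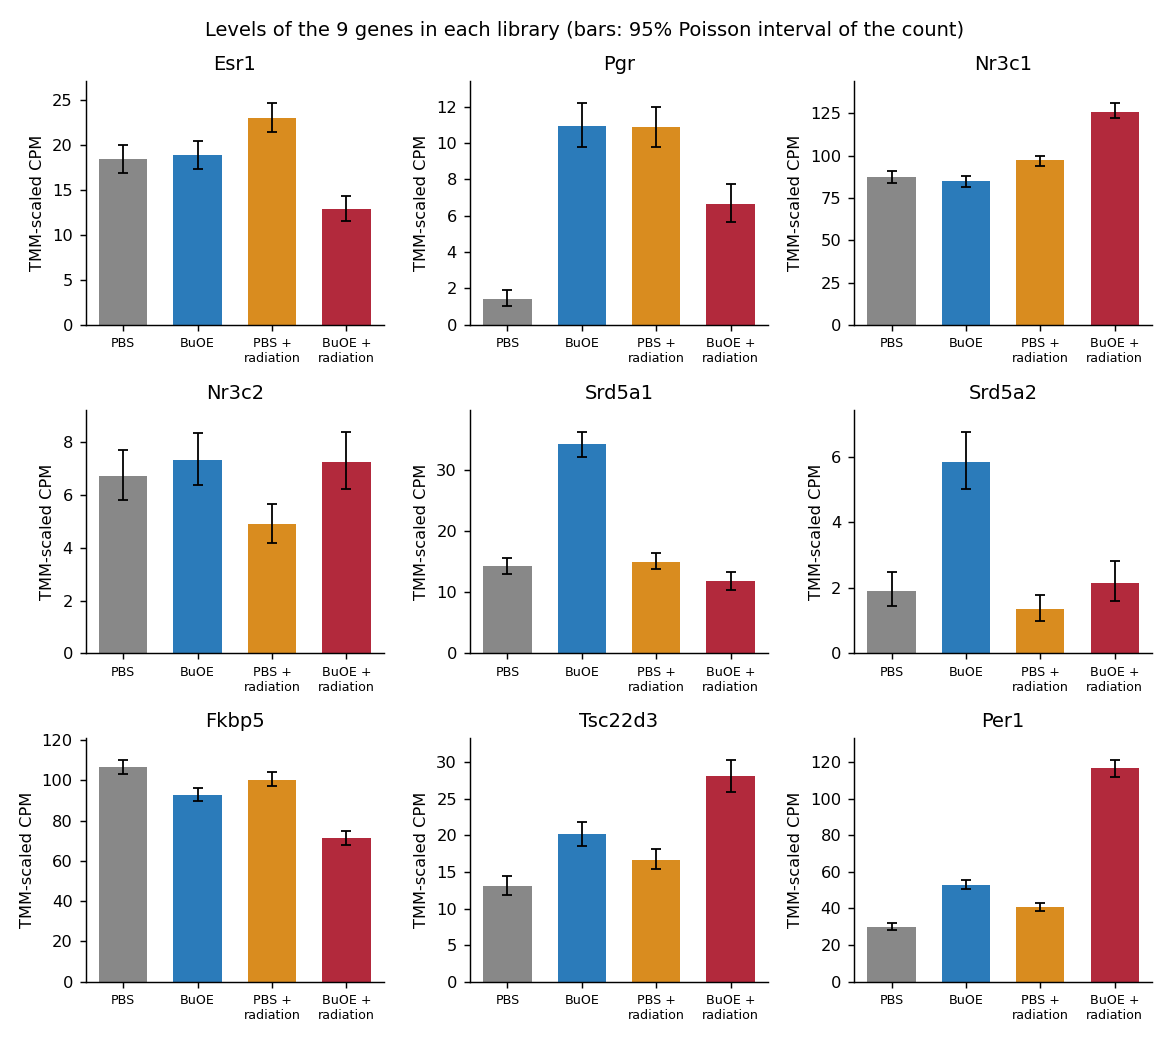
Scaled CPM (vertical axis, from 0, a separate scale per panel) of the 9 genes in the 4 libraries, 1 bar per library, with the 95% Poisson interval of the count as the error bar. Per1 and Tsc22d3 are highest with BuOE and radiation (116.6 and 28.1 CPM), Srd5a1 and Srd5a2 with BuOE alone (34.1 and 5.84 CPM), and Pgr is lowest with PBS (1.43 CPM).

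The 9 genes were read against all 14365 genes tested. With radiation in the PBS arm 1 of 9 was at least 2-fold changed (Pgr, higher), against 6.63% of all genes (5.62% higher and 1.02% lower). With radiation in the BuOE arm 3 of 9 were (Per1 higher, Srd5a1 and Srd5a2 lower), against 7.21% (2.27% higher and 4.94% lower). For BuOE without radiation 3 of 9 were, all higher (Pgr, Srd5a1 and Srd5a2), against 12.9% (8.72% higher and 4.23% lower), and for BuOE after radiation 1 of 9 was (Per1, higher), against 9.74% (3.81% higher and 5.92% lower). A count of 1 among 9 genes is near these background shares and is no result about the 9. The medians of the 9 ratios were 0.15, -0.38, 0.63 and 0.38, against 0.00, -0.03, -0.01 and -0.07 over all genes. The comparisons share libraries in pairs, so their values stand side by side and are not independent.

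**Figure D2:**
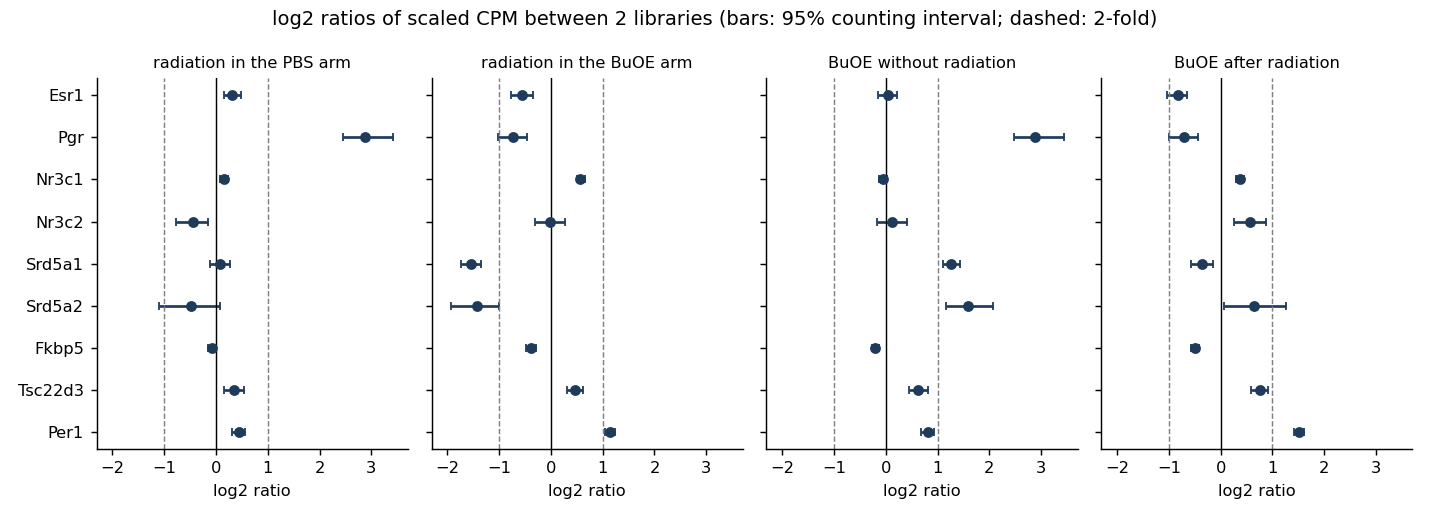
log2 ratios of scaled CPM (horizontal axis) of the 9 genes in the 4 comparisons, 1 panel each. Dots are ratios of 2 libraries, bars are 95% counting intervals, the solid line marks 0 and the dashed lines mark 2-fold. Per1 lies above 0 in all 4 panels and Fkbp5 below 0 in all 4, while Pgr is at 2.87 and 2.88 for radiation in the PBS arm and for BuOE without radiation, and -0.72 and -0.71 in the other panels.

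Among the receptors, the glucocorticoid receptor gene Nr3c1 was the most abundant and varied little. It stood at 87.5 CPM with PBS, 84.8 with BuOE, 97.2 with PBS and radiation, and 126 with BuOE and radiation. The last of these was the highest, and the first pair did not differ beyond counting error. Its radiation ratio was 0.15 (0.08 to 0.23) in the PBS arm and 0.57 (0.50 to 0.65) in the BuOE arm. Its BuOE ratio was -0.05 (-0.12 to 0.03) without radiation, a sign that turned to 0.04 when libraries were scaled by size alone, and 0.38 (0.30 to 0.45) after radiation. No Nr3c1 ratio reached 2-fold. The nearest profile was that of Cops2, a signalosome subunit gene (88.6, 85.9, 98.8 and 130.3 CPM).

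Nr3c2, the receptor for aldosterone that also binds glucocorticoids, stood at 6.71, 7.32, 4.88 and 7.24 CPM, from 174 to 222 reads. The irradiated PBS library was the low one, and the other 3 did not differ from their neighbours in order beyond counting error. The radiation ratio was -0.45 (-0.76 to -0.16) in the PBS arm and -0.02 (-0.31 to 0.28) in the BuOE arm, and the latter became 0.10 with upper-quartile factors. The BuOE ratio was 0.12 (-0.16 to 0.41) without radiation and 0.56 (0.26 to 0.88) after it. Summed luminal epithelial markers had the same order of libraries (3621, 4139, 3103 and 4133 CPM), and the gene nearest to Nr3c2 in profile (log2 distance 0.0532) was Cdh1, the epithelial cadherin and 1 of those markers. Cdh1 itself had that order (756, 811, 543 and 775 CPM), but the single markers did not all share it. Of the 8, 4 were lowest with PBS, among them Krt18 (558, 772, 728 and 1115 CPM), and Krt19 was highest with PBS (886, 771, 528 and 595 CPM). Their part in the Nr3c2 levels was not tested. A small share of the Nr3c2 exon bases (3.82%) overlaps a gene on the other strand, whose reads cannot be told apart if counting ignored strand.

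Of the 10 measured mineralocorticoid-responsive genes (11 listed), 1 was at least 2-fold higher and none lower with radiation in the PBS arm, and 1 higher (0 with library size alone) and none lower in the BuOE arm. With BuOE, 3 were higher and 1 lower without radiation, and 1 was higher (2 with DESeq2 size factors or upper-quartile factors) and none lower after it. Over all genes tested, 5.62% were higher and 1.02% lower with radiation in the PBS arm, and 2.27% and 4.94% in the BuOE arm. For BuOE the shares were 8.72% and 4.23% without radiation, and 3.81% and 5.92% after it. The sodium channel subunit genes Scnn1a and Scnn1g accounted for most of the higher ones in the list. Scnn1a stood at 3.00, 9.57, 5.70 and 12.3 CPM, lowest with PBS and highest with BuOE and radiation. Scnn1g, at 0.204, 1.48, 0.982 and 2.02 CPM, had the same order. Its PBS level is close to the floor of 3 counts (0.102 CPM in that library), so its ratios have wide intervals. They were 1.95 (1.00 to 3.81) for radiation in the PBS arm and 2.52 (1.63 to 4.38) for BuOE without radiation. Sgk1, the kinase gene that mineralocorticoids and glucocorticoids both induce, lay between 171 and 217 CPM, with ratios from -0.26 to 0.18.

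Esr1 stood at 18.4 CPM with PBS, 18.8 with BuOE, 22.9 with PBS and radiation, and 12.8 with BuOE and radiation, from 312 to 817 reads. The irradiated PBS library was highest and the irradiated BuOE library lowest, while the unirradiated pair did not differ beyond counting error. The radiation ratio was 0.32 (0.16 to 0.48) in the PBS arm and -0.55 (-0.76 to -0.35) in the BuOE arm, and the BuOE ratio was 0.04 (-0.14 to 0.21) without radiation and -0.83 (-1.03 to -0.65) after it. The sum of the fibroblast markers, much of it from collagen genes, was highest and lowest in the same 2 libraries (6233, 6354, 9304 and 5316 CPM). Of those markers, Pdgfra (766, 709, 893 and 1048 CPM) and Dcn (511, 882, 994 and 1324 CPM) were instead highest with BuOE and radiation. Their part in the Esr1 levels was not tested. The nearest profile to Esr1 was that of Nrep, a gene of neural and wound stroma (63.6, 65.6, 82.0 and 42.3 CPM). The other oestrogen receptor gene, Esr2, was at most 0.307 CPM.

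Pgr, itself a textbook target of the oestrogen receptor, had the widest range of the 9 genes. It stood at 1.43 CPM with PBS (42 reads), 11 with BuOE, 10.9 with PBS and radiation, and 6.63 with BuOE and radiation. The PBS library was far below the other 3, of which the BuOE and irradiated PBS libraries did not differ beyond counting error. With radiation in the PBS arm the ratio was 2.87 (2.46 to 3.42), and in the BuOE arm -0.72 (-1.01 to -0.45). With BuOE it was 2.88 (2.47 to 3.44) without radiation and -0.71 (-0.99 to -0.44) after it. The ratios of 2.87 and 2.88 have the same PBS library below the line, so they are not independent of each other.

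Markers of other cells moved between the same libraries as Pgr. All 7 Schwann cell markers were lowest in the PBS library and highest in the BuOE library, with median ratios of 1.93 for radiation in the PBS arm and 2.75 for BuOE without radiation. All 7 endothelial markers were lowest with PBS too (medians 1.20 and 0.71), but 0 were highest with BuOE. Of 8 smooth muscle and pericyte markers, 6 were lowest with PBS and 4 highest with BuOE (medians 1.05 and 1.73). Likeness of profile was measured as the Euclidean distance between log2 levels over the 4 libraries, each gene centred on its mean, among 9636 genes. Nearest to Pgr was the Schwann cell cadherin gene Cdh19 (distance 0.251, with 4.6, 31.3, 26.9 and 17.5 CPM), followed by Col28a1, a collagen gene known from peripheral nerve (0.401), and Apod, an apolipoprotein gene (0.507). The part of nerve-associated, endothelial, smooth muscle or pericyte cells in the Pgr values was not tested.

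**Figure D3:**
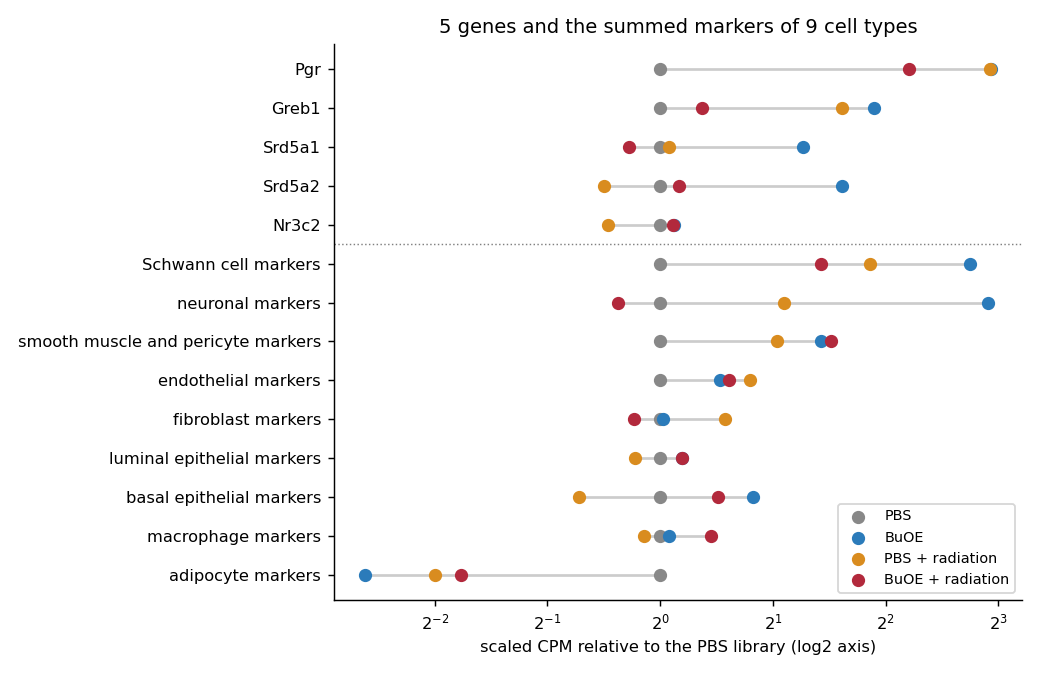
Scaled CPM of 5 genes (above the dotted line) and summed scaled CPM of the markers of 9 cell types (below it), each divided by its value in the PBS library, on a log2 axis, with 1 dot per library. Pgr and the Schwann cell and neuronal markers share high values in the BuOE library. The BuOE dot is nearly covered by another one in the rows for Pgr, Nr3c2 and luminal epithelial markers.

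Other oestrogen-responsive genes were mostly below 2-fold. Of 14 measured, 1 was at least 2-fold higher and none lower with radiation in the PBS arm, and none higher and 2 lower in the BuOE arm. With BuOE, 3 were higher and none lower without radiation, and 1 was higher and 1 lower after it. Over all genes tested, 5.62% were higher and 1.02% lower with radiation in the PBS arm, and 2.27% and 4.94% in the BuOE arm. For BuOE the shares were 8.72% and 4.23% without radiation, and 3.81% and 5.92% after it. The list medians were 0.13, 0.15, 0.12 and 0.01 in that order, against 0.00, -0.03, -0.01 and -0.07 over all genes tested. Greb1, a cofactor gene of the oestrogen receptor, was, like Pgr, lowest with PBS and high with either BuOE or radiation alone, at 5.18, 19.3, 15.9 and 6.71 CPM. Its radiation ratio was 1.60 (1.35 to 1.88) in the PBS arm and -1.52 (-1.79 to -1.27) in the BuOE arm. Complement C3, induced by oestrogen in the uterus, was highest in the irradiated BuOE library instead (120.1, 210.4, 137 and 300.2 CPM).

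Both 5-alpha reductase genes peaked with BuOE alone, and with BuOE and radiation both were at less than 0.5 times that level. Srd5a1 stood at 14.2 CPM with PBS, 34.1 with BuOE, 15.0 with PBS and radiation, and 11.7 with BuOE and radiation. The BuOE library alone stood high, and the PBS and irradiated PBS libraries did not differ beyond counting error. The BuOE ratio was 1.26 (1.1 to 1.43) without radiation and -0.35 (-0.57 to -0.14) after it, and the radiation ratio was 0.08 (-0.11 to 0.27) in the PBS arm and -1.53 (-1.73 to -1.35) in the BuOE arm.

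Srd5a2, the isoenzyme gene best known from prostate stroma, was scarce, with 48 to 177 reads. It stood at 1.91, 5.84, 1.35 and 2.14 CPM. Only the BuOE library differed from its neighbour in order beyond counting error. The BuOE ratio was 1.58 (1.17 to 2.07) without radiation and 0.64 (0.07 to 1.26) after it, and the radiation ratio was -0.48 (-1.09 to 0.08) in the PBS arm and -1.42 (-1.92 to -0.99) in the BuOE arm. Part of the exon bases of Srd5a1 (16.4%) and of Srd5a2 (8.97%) lies in a second gene model on the same strand, so how counting shared those reads is uncertain. Basal epithelial markers (767, 1359, 467 and 1098 CPM), neuronal markers and Schwann cell markers were also highest in the BuOE library, and their part in these values was not tested. The nearest profile to Srd5a1 was that of Ucp2, a mitochondrial carrier gene (log2 distance 0.301), and the nearest to Srd5a2 that of the macrophage complement gene C1qc (0.337). Summed macrophage markers were instead highest with BuOE and radiation (385, 407, 349 and 527 CPM). Of the 7 markers, 5 were highest there and 2 with BuOE alone.

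Other enzymes that make or remove active steroids were mostly below 2-fold. Of 26 listed, 14 were measured. With radiation in the PBS arm 2 were at least 2-fold lower and none higher, and in the BuOE arm none was. With BuOE 2 were lower and none higher without radiation, and 1 was higher (0 with library size alone) and none lower after it. Over all genes tested, 5.62% were higher and 1.02% lower with radiation in the PBS arm, and 2.27% and 4.94% in the BuOE arm. For BuOE the shares were 8.72% and 4.23% without radiation, and 3.81% and 5.92% after it. Akr1c18, whose product inactivates progesterone, stood at 146, 30.3, 48.4 and 37.3 CPM, so that the PBS library was high where it was low for Pgr. Its ratio was -1.59 (-1.67 to -1.51) for radiation in the PBS arm and -2.27 (-2.37 to -2.16) for BuOE without radiation. Akr1c14, a related hydroxysteroid dehydrogenase gene, was the other gene at least 2-fold lower in these comparisons, at 3.54, 0.825, 1.57 and 1.36 CPM. These 2 genes belong to a family of close paralogs, so their counts are uncertain where reads map to several members.

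Sult1e1, the oestrogen sulfotransferase gene, stood at 4.29, 7.82, 4.80 and 9.75 CPM and had the highest BuOE ratio of the list after radiation (1.01, 0.73 to 1.32). Hsd11b1, whose enzyme regenerates active glucocorticoid inside cells, stood at 36.8, 51.5, 37.8 and 51.5 CPM, with both BuOE libraries above both PBS libraries. Its gene symbol falls outside the naming rule, and it was chosen after its values were seen. Its BuOE ratio was 0.48 (0.37 to 0.60) without radiation and 0.45 (0.33 to 0.56) after it, below 2-fold in both. H6pd, which supplies that enzyme with cofactor, was lowest in the irradiated BuOE library (342, 293, 343 and 229 CPM). The oestrogen-making aromatase gene Cyp19a1 was at most 0.309 CPM.

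Fkbp5 did not follow the other glucocorticoid targets. It stood at 106 CPM with PBS, 92.9 with BuOE, 100.4 with PBS and radiation, and 71.4 with BuOE and radiation, each from at least 1735 reads. It was lowest where Per1 and Tsc22d3 were highest, and all 4 libraries differed beyond counting error. The ratio was -0.08 (-0.15 to -0.01) for radiation in the PBS arm, -0.38 (-0.47 to -0.29) for radiation in the BuOE arm, -0.20 (-0.27 to -0.12) for BuOE without radiation and -0.49 (-0.57 to -0.41) for BuOE after it. None of these reached 2-fold. Its nearest profiles were those of Erc1, a scaffold protein gene (distance 0.018), Twf1, an actin-binding protein gene (0.0215), and Fibp (0.0248).

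The chaperones that hold unliganded receptors, among which FKBP5 acts, had no gene at least 2-fold higher or lower in any of the 4 comparisons. Of all genes, 6.63% and 7.21% were so changed for radiation in the PBS and BuOE arms. For BuOE 12.9% were without radiation and 9.74% after it. Of the 14 chaperone genes, 0 had ratios above 0 for BuOE without radiation (median -0.30), against 48.8% of all genes. For radiation in the PBS arm 2 were above 0 (median -0.13), against 50.4% of all genes. With BuOE after radiation 5 of 14 were above 0 (median -0.21), near the 43.8% of all genes. For radiation in the BuOE arm 11 were above 0 (median 0.09), against 46.2% of all genes. With library size alone 4 were above 0 there, and the median became -0.03. Hsp90ab1, the most abundant, stood at 3035.5, 2528, 2594.6 and 2693.7 CPM, and the constitutive heat shock gene Hspa8 had the lowest ratio for BuOE without radiation (-0.52). None of the 13 coactivator and corepressor genes reached 2-fold either. Nrip1, a corepressor gene that oestrogen induces, stood at 152, 239.9, 173 and 156 CPM and had both the highest ratio for BuOE without radiation (0.66) and the lowest for radiation in the BuOE arm (-0.62).

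Tsc22d3 stood at 13.1 CPM with PBS, 20.2 with BuOE, 16.7 with PBS and radiation, and 28.1 with BuOE and radiation, from 384 to 682 reads. PBS was lowest, the irradiated BuOE library highest, and every step in the order exceeded counting error. The radiation ratio was 0.35 (0.16 to 0.54) in the PBS arm and 0.47 (0.31 to 0.63) in the BuOE arm. The BuOE ratio was 0.63 (0.44 to 0.82) without radiation and 0.75 (0.59 to 0.91) after it. No ratio of Tsc22d3 reached 2-fold, and the difference of its radiation ratios between the arms was 0.12 (-0.12 to 0.37). The nearest profile was that of Sdc4, a heparan sulfate proteoglycan gene (255, 395, 329 and 539 CPM).

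Per1 had the same order of libraries over a wider range. It stood at 30.1 CPM with PBS, 52.9 with BuOE, 40.9 with PBS and radiation, and 116.6 with BuOE and radiation, from 884 to 2832 reads. The irradiated BuOE library was far above the rest, and every step exceeded counting error. The radiation ratio was 0.44 (0.32 to 0.56) in the PBS arm and 1.14 (1.05 to 1.23) in the BuOE arm. The BuOE ratio was 0.81 (0.69 to 0.93) without radiation and 1.51 (1.42 to 1.60) after it. Its nearest profiles were those of Ecm1, an extracellular matrix gene (distance 0.116), Nfkbia, the NF-kB inhibitor gene that glucocorticoids also induce (0.148), and Map3k8, a kinase gene (0.2). The share of mitochondrially encoded counts was likewise lowest in the PBS library (0.413%) and highest in the irradiated BuOE library (2.65%), and its part in these values was not tested. Smooth muscle and pericyte markers, all 8 measured, summed to 195, 525, 399.6 and 557 CPM, the order of Per1 and Tsc22d3, and 3 of the 8 were themselves lowest with PBS and highest with BuOE and radiation. Their part in the values of these genes, and of the glucocorticoid and clock lists below, was not tested. With library totals that leave the mitochondrially encoded genes out, no ratio of the 9 genes changed its side of 2-fold.

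The 25 measured glucocorticoid-inducible genes outside the 9 (28 listed) were often higher with BuOE, as Per1 and Tsc22d3 were. With BuOE after radiation 9 were at least 2-fold higher and none lower, and 20 were above 0 (median 0.60), where 43.8% of all genes were above 0. For BuOE without radiation 6 were higher, 1 was lower and 18 were above 0 (median 0.42), against 48.8% of all genes. For radiation in the BuOE arm 3 were higher (5 with upper-quartile factors), none lower and 17 above 0 (median 0.34), against 46.2% of all genes. In the PBS arm none was higher, 1 was lower and 14 were above 0 (median 0.08), against 50.4% of all genes above 0. The shares at least 2-fold higher and lower over all genes were 3.81% and 5.92% for BuOE after radiation, and 8.72% and 4.23% without it. For radiation they were 2.27% and 4.94% in the BuOE arm, and 5.62% and 1.02% in the PBS arm. Of the 25, 15 (60%) had their highest level in the irradiated BuOE library, against 28.4% of all genes, and 10 (40%) were also lowest in the PBS library, against 16.3%. The list was chosen with earlier results of these data known, so these shares are descriptive.

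Zbtb16, a zinc finger repressor gene and a sensitive glucocorticoid target, stood at 7.19, 12, 8.84 and 37.0 CPM. Its ratio of 2.06 (1.88 to 2.25) for BuOE after radiation was the highest of the list, as was that of 1.62 (1.45 to 1.81) for radiation in the BuOE arm. Nfkbia stood at 69.2, 107, 91.6 and 268 CPM and Klf15, a metabolic regulator gene, at 0.783, 2.31, 1.26 and 4.24 CPM. Dusp1, the phosphatase gene that dampens MAP kinases, stood at 38.2, 63.2, 55.6 and 125.7 CPM, and Klf9 at 88.0, 147, 117 and 186 CPM. Dusp1 and Klf9 were chosen after their values were seen. All 5 of these genes were lowest with PBS and highest with BuOE and radiation.

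Several classical targets did otherwise. Anxa1, the gene of the anti-inflammatory protein annexin A1, was highest with PBS and lowest with BuOE and radiation (641, 433, 565 and 403 CPM). This is the order of Fkbp5. Angptl4, picked from the list after its values were seen, had it as well (179.7, 97.5, 119.3 and 95.6 CPM). The lipocalin gene Lcn2 was highest with BuOE alone (107, 231, 106 and 149 CPM), as was the secreted protein gene Crispld2 (57.4, 117, 103.8 and 98.7 CPM). Pck1, the gluconeogenic enzyme gene, stood at 4.29 CPM with PBS and at most at 0.206 CPM in the others. Adipocyte markers were also highest with PBS (316, 51.4, 79.2 and 92.6 CPM), and their part in the Pck1 value was not tested. The feedback kinase inhibitor gene Errfi1 was lowest with BuOE and highest with BuOE and radiation (318, 255, 392 and 467 CPM).

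**Figure D4:**
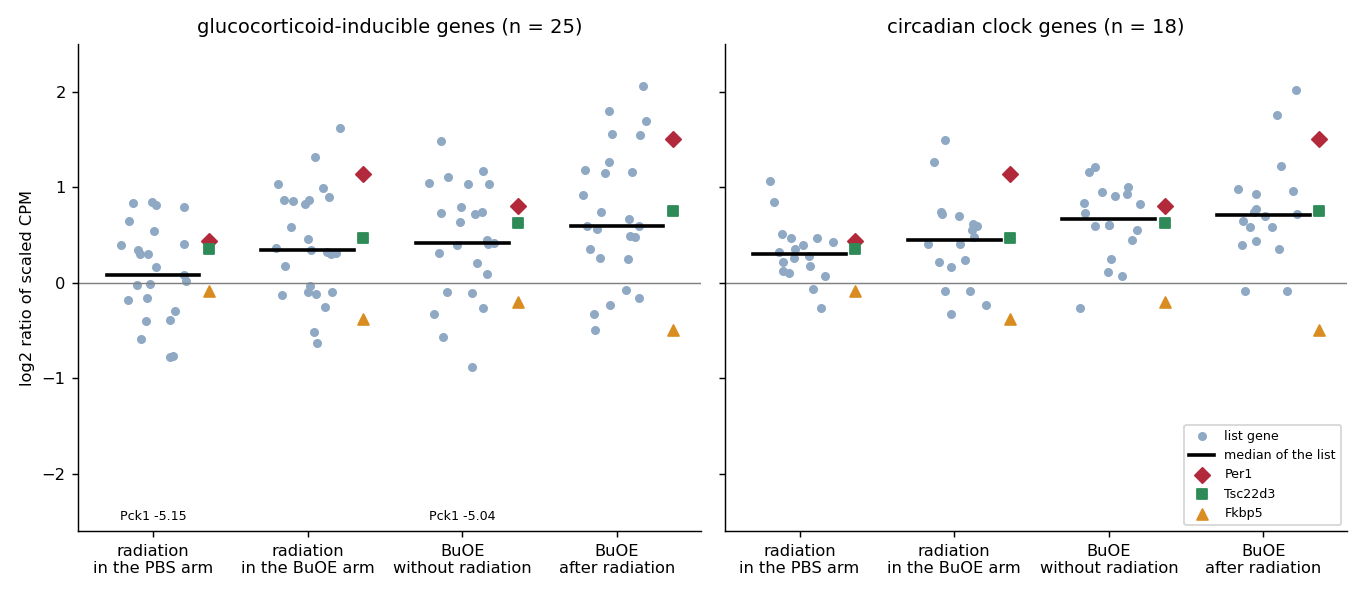
log2 ratios of scaled CPM (vertical axis) in the 4 comparisons for 25 glucocorticoid-inducible genes (left) and 18 circadian clock genes (right), 1 dot per gene, with the list median as a bar and Per1, Tsc22d3 and Fkbp5 as larger symbols that belong to neither list. The medians are highest for BuOE after radiation (0.60 and 0.71), and Fkbp5 lies below 0 throughout. Pck1 lies beyond the axis and its ratio is written at the foot of the left panel.

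Per1 is also a core clock gene, and the other clock genes were counted in the same way. All 18 were measured and none was at least 2-fold lower in any of the 4 comparisons. For radiation 1 was higher in the PBS arm and 2 in the BuOE arm, and for BuOE 3 were higher without radiation (6 with library size alone) and 3 after it (5 with DESeq2 size factors and 6 with upper-quartile factors). Of all genes tested, 5.62% and 2.27% were at least 2-fold higher for radiation in the PBS and BuOE arms. For BuOE the shares were 8.72% without and 3.81% after radiation. The shares at least 2-fold lower were 1.02%, 4.94%, 4.23% and 5.92% in the same order. Medians of the list were 0.30 and 0.45 for radiation in the PBS and BuOE arms, and 0.67 and 0.71 for BuOE without and after radiation. Of the 18, 14 (77.8%) were both lowest in the PBS library and highest in the irradiated BuOE library, against 16.3% of all genes. The clock list too was chosen with earlier results of these data known, so these shares are descriptive.

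Nr1d1, the gene of the haem-binding clock repressor REV-ERB alpha, stood at 45.9, 82.5, 57.3 and 233 CPM, with a ratio of 2.02 (1.95 to 2.10) for BuOE after radiation and 1.5 (1.43 to 1.56) for radiation in the BuOE arm. Dbp, a clock output factor gene chosen after its values were seen, stood at 6.47, 13.0, 9.24 and 31.4 CPM. The repressor gene Bhlhe40 stood at 249, 414, 345 and 674 CPM. Arntl, the gene of the activator BMAL1 that drives these outputs, went the other way (30.9, 25.7, 25.8 and 24.4 CPM), highest with PBS. Npas2, which can replace CLOCK as its partner, was highest with BuOE alone (3.10, 6.99, 4.10 and 5.60 CPM). The time of day at which each culture was harvested is not in the labels.

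Androgen-responsive prostate genes, the downstream genes of the hormone that 5-alpha reductases make, had some ratios larger than any of the 9. Of 12 measured, 6 were at least 2-fold higher and 1 lower with radiation in the PBS arm, and 2 higher (4 with upper-quartile factors) and 3 lower in the BuOE arm. With BuOE 6 were higher and none lower without radiation, and 5 were higher and 2 lower after it. Over all genes tested, 5.62% were higher and 1.02% lower with radiation in the PBS arm, and 2.27% and 4.94% in the BuOE arm. For BuOE the shares were 8.72% and 4.23% without radiation, and 3.81% and 5.92% after it. Many of the 12 genes are products of secretory epithelium, and they did not share one order. Tgm4, a secretory transglutaminase gene, stood at 1.91, 45.7, 41.1 and 86.4 CPM, and the probasin gene Pbsn at 2.69, 7.26, 9.46 and 50.7 CPM. Sbp, the spermine binding protein gene, stood at 757, 428, 439 and 12.8 CPM, lowest where the other 2 were highest. Tgm4, Pbsn and Sbp did not have the order of Srd5a1 or of Srd5a2. Rhou, another gene of the list and picked after its values were seen, did have that of Srd5a2 (90.9, 99.9, 71.2 and 96.2 CPM).

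Among membrane and other steroid receptors, 8 of 11 listed genes were measured. Paqr5, a membrane progestin receptor gene, was the only one past 2-fold in any of the 4 comparisons, at 0.545, 1.65, 2.67 and 2.06 CPM, and like Pgr it was lowest with PBS. Its ratio was 2.16 (1.52 to 3.15) for radiation in the PBS arm and 1.49 (0.76 to 2.51) for BuOE without radiation. In these comparisons 6.63% and 12.9% of all genes were at least 2-fold changed. Pgrmc1, a haem-binding progesterone receptor component gene, stood at 122, 114, 128 and 171 CPM, the order of Nr3c1.

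The radiation ratio was compared between the arms as the ratio in the BuOE arm minus that in the PBS arm. At least a 2-fold difference was present for 2 of the 9 genes, both lower in the BuOE arm, against 11.5% of all genes (2.7% higher and 8.76% lower). These were Pgr (-3.59, -4.12 to -3.06) and Srd5a1 (-1.61, -1.88 to -1.35). Srd5a2 lay just short at -0.94 (-1.65 to -0.23) and passed 2-fold with library size alone (-1.06). Esr1 had a difference of -0.87 (-1.12 to -0.62) and Per1 one of 0.70 (0.55 to 0.85). With 4 libraries and 4 terms this difference has no test.

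Additive terms for radiation and BuOE, fitted over all 4 libraries with 1 residual degree of freedom, gave 0 calls among the 9 genes with edgeR and 1 with DESeq2. With edgeR's quasi-likelihood test and Benjamini-Hochberg adjustment over 14365 genes, 0% of all genes passed an adjusted p of 0.05 for either term, while 1076 genes for radiation and 2954 for BuOE had an unadjusted p below 0.05. The lowest adjusted p of the 9 genes from edgeR was 0.663 for radiation (Tsc22d3, and the same for Per1) and 0.124 for BuOE (Per1, log2 change 1.17, higher in both BuOE libraries). DESeq2 called 112 genes for radiation and 866 for BuOE, with Per1 the only one of the 9 (adjusted p 0.000756 for BuOE), and limma-voom called 0 and 0 (1057 and 2952 at an unadjusted p below 0.05), with Per1 at 0.116 for BuOE. Over all alternatives the adjusted p of Per1 for BuOE ran from 0.000756 with DESeq2 to 0.132 with library size alone in edgeR.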

How the data were processed

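The authors' deposited table holds raw counts of reads per gene, 1 column for each of 4 libraries of cultured mouse prostate fibroblasts, and groups were taken from the treatment in the labels. Counts were made with featureCounts on GRCm39, and Trim Galore 0.6.4, FastQC, Salmon 1.4.0 and edgeR 4.2.2 are named without a role, per the submitters' processing notes. How strand and reads with several matches were handled was not given in the sources used here. Gene symbols, biotypes and exon lengths came from GENCODE M21 (GRCm38) by gene ID. Of 56748 IDs, 4675 had no symbol (0.689% to 1.29% of counts) and stayed in the totals. Promoter windows came from RefSeq (GRCm38.p6).

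TMM factors from edgeR 4.0.16 in R 4.3.3, which ran from 0.972 to 1.05, scaled the counts, and a minimum mean of 1 CPM left 14365 genes. log2 ratios used a prior count of 2, and intervals are exact binomial intervals of the 2 counts (Poisson for a level), covering counting error only. The floor of 3 counts equals 0.0842 to 0.123 CPM. Pairwise comparisons have no replicates and no test, and at least 2-fold counts as changed. Secondarily, additive terms for radiation and BuOE were fitted in edgeR's quasi-likelihood test, in DESeq2 (1.42.0) and in limma-voom (limma 3.58.1). The steps were tested on simulated data.

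The 9 genes and all lists were chosen with earlier results of these data known. Beside the 9, the rule names, for each list, its 2 most abundant genes and its highest and lowest ratio in each comparison, and for each of the 9 the 3 genes of at least 10 CPM with the nearest profile (Euclidean distance of centred log2 CPM over 4 libraries). Not all of these are reported here. Alternatives were other scaling, filters, prior counts of 0.5 and 5, totals without mitochondrially encoded genes and the other tools.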

Additional observations from a re-analysis of the deposited data

Results flagged for a closer look

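Esr1 and Pgr had radiation ratios on opposite sides of 0 in the PBS and BuOE arms. The ratio in the BuOE arm minus that in the PBS arm was -0.87 for Esr1 (-0.55 against 0.32) and -3.59 for Pgr (-0.72 against 2.87). Each arm is 1 pair of libraries, so the difference was not tested. Fibroblast markers for Esr1, and Schwann cell markers for Pgr, also had median ratios of opposite sign in the arms (0.50 and -0.62, and 1.93 and -0.94), and their part was not tested.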

How the results depend on the processing

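Of 345 alternative values for the ratios of the 9 genes, 330 moved by less than their counting interval, 15 moved further (by at most 0.15) and none that was past 2-fold reversed. The Nr3c1 and Nr3c2 signs and the Srd5a2 difference named above were the only changes of sign or of side of 2-fold. Of 360 alternative list medians, 53 moved further than the limit and 307 did not. Without a filter the genes at least 2-fold changed numbered 3734 and 4180 for radiation in the PBS and BuOE arms, 5223 and 4584 for BuOE without and after radiation, and 7091 for the arm difference. With a mean of at least 10 CPM they numbered 288, 298, 772, 592 and 522, and 6 of the 9 genes were left, of which 0 changed for radiation in the PBS arm, 1 for BuOE without radiation and 1 for the difference, since Pgr, Nr3c2 and Srd5a2 dropped out. The additive edgeR model called 283 genes for BuOE without a filter and 400 with at least 10 CPM, and DESeq2 called 866 for BuOE and 112 for radiation. Library size alone shifted the median of all genes to -0.15 for radiation in the BuOE arm and for the difference, and upper-quartile factors shifted that of the difference to 0.11. The share of higher among changed genes was 31.5% for radiation in the BuOE arm, 21.3% with library size alone and 44.1% with upper-quartile factors. For BuOE after radiation it was 39.2% and became 53.4%, and for the difference 23.6% became 34.4%, both with upper-quartile factors. With upper-quartile factors the medians of the coactivator list (-0.07 to 0.05), the steroid metabolism list (-0.05 to 0.07) and the other receptors (-0.02 to 0.1) turned sign for radiation in the BuOE arm, the coactivator list did so for BuOE after radiation (-0.06 to 0.08), and that of the oestrogen-responsive list with library size alone for BuOE after radiation (0.01 to -0.02). No library could be left out in turn, since 3 libraries leave no residual degree of freedom in the additive model. No paired analysis was possible because each condition has 1 library and all labels share the number 1. Low counts limit Pgr in the PBS library (42 reads) and Srd5a2 in all libraries but BuOE (48 to 56 reads).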
